A study of Mus musculus with 5 samples.

Results

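The transcription factor p53, encoded by Trp53 in the mouse, and 9 genes known as its targets were followed in mouse E14 embryonic stem cells that carry a label of Hk2/Pkm2 overexpression and in normal E14 cells. The 10 genes were Trp53, Mdm2, Cdkn1a, Ccng1, Bax, Perp, Ptpn14, Aen, Pmaip1 and Trp53inp1, taken by symbol from a table of 21930 genes, and all 10 were found. Messenger RNA was sequenced in 5 libraries, 1 for each group, and values are FPKM, which counts fragments relative to transcript length and to the mapped fragments of the library. All 5 groups are E14 cells, for which the labels give the strain as C57BL/6. Normal cells and Hk2/Pkm2-labelled cells were each sampled in culture with leukemia inhibitory factor (LIF), a cytokine added to mouse stem cell medium to prevent differentiation, and each sampled again when LIF had been left out for 24 hours and then added back. The fifth library came from Hk2/Pkm2-labelled cells kept for 40 days without LIF, and no normal library stands beside it. The sources used here do not give the vector, the promoter, or whether the overexpressing cells were a pool or 1 clone.

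In a resting cell p53 is held low by Mdm2, a ubiquitin ligase that binds p53 and marks it for degradation and that is itself a p53 target, which closes a feedback loop. DNA damage and other stresses free p53, which binds DNA as a tetramer and switches on genes that halt the cell cycle, repair DNA or start apoptosis. Mouse embryonic stem cells are known for abundant p53 and for a weak G1 arrest after damage. Because p53 is regulated largely as a protein, its RNA level and its activity need not move together, and the libraries measured RNA only.

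The p53 binding element is a pair of 10-base sites, and sequences of this form near the genes are shown as a description. The 10 genes were taken by symbol and not by such a site. Within 3000 bases on either side of the gene start in mm9, 5 of the 10 genes held a full site, meaning 2 adjoining 10-base sites with at most 2 of 20 bases off the consensus and the C and G core of each intact. The same held for 5.94% of 22367 protein-coding genes. Capitals mark the site, each sequence is written 5′ to 3′ on the strand of its gene, and a match is a description of letters and not evidence of binding. Distances are from the outermost annotated start of the gene, which need not be the start of the transcript expressed here.
Cdkn1a, upstream by 51 bases, 1 base off, chr17:29227863-29227902, plus strand: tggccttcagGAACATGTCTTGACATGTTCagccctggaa
Ccng1, upstream by 170 bases, 1 base off, chr11:40568954-40568993, minus strand: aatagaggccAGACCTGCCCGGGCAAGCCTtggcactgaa
Ccng1, 356 bases inside, in an intron, 1 base off, chr11:40568428-40568467, minus strand: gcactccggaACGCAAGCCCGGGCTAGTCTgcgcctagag
Perp, upstream by 2037 bases, 2 bases off, chr10:18562830-18562869, plus strand: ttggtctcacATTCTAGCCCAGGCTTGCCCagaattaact
Perp, 2946 bases inside, in an intron, 2 bases off, chr10:18567813-18567852, plus strand: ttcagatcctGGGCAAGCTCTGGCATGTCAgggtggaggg
Bax, 305 bases inside, in an exon of at least 1 annotated transcript, 2 bases off, chr7:52721944-52721963, minus strand: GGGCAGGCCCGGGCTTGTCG
The fifth gene with such a site was Pmaip1, 174 bases upstream of its start.

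In the shorter promoter windows of RefSeq (GRCm38.p6, 250 bases before to 50 bases after a transcript start), single 10-base sites that match the consensus at every base, on either strand, were searched, since the feedback gene and Trp53 itself had no full site by the rule above. Windows were listed for 7 of the 10 genes, and 7 of their 9 windows held such a site, against 8.36% of 32851 windows. The 2 windows of Aen overlap and hold the same site. The windows without one were that of Ptpn14 and 1 of the 2 of Cdkn1a. Those of Trp53, Mdm2, Aen and Bax are given in capitals with 10 bases on each side.
Trp53, chr11:69580274-69580303 (GRCm38.p6), plus strand: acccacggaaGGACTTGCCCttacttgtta
Mdm2, chr10:117710925-117710954 (GRCm38.p6), minus strand: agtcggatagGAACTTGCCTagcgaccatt
Aen, chr7:78895927-78895956 (GRCm38.p6), plus strand: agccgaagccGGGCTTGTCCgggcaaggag
Bax, chr7:45467080-45467109 (GRCm38.p6), minus strand: agcatatcccAGGCAAGCTTtgaacttgcg
Trp53, Mdm2 and Bax carry the 10-base site upstream of the start, and Cdkn1a had 2 of them in 1 of its 2 windows. The windows of Cdkn1a begin at bases 29090729 and 29093519 of chromosome 17 (GRCm38.p6), and the sites, with the full site above, lie in the first. Which of the 2 starts gave the Cdkn1a signal was not determined. A letter match in a window of this size says nothing on whether p53 sat there in these cells.

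Some features of the libraries bear on every value below. Between 10151 and 11114 transcripts reached 1 FPKM per library, and single fragments on transcripts of 1 kilobase were worth an estimated 0.0361 to 0.0403 FPKM. With LIF, Hk2 measured 76.2 FPKM in normal and 98.6 FPKM in Hk2/Pkm2-labelled cells, and after 24 hours 49.7 and 59.0 FPKM. Pkm, counted over all its isoforms, measured 510 and 567 FPKM with LIF and 611 and 564 FPKM after 24 hours, so neither differed 2-fold between the labelled cell types. At 40 days they stood at 29.0 and 495 FPKM. The library labels are therefore used as names only. The Y-linked gene Ddx3y stood at 11.8 FPKM in both normal libraries. In the Hk2/Pkm2-labelled libraries it stood at 0.0225 FPKM with LIF, 0.013 FPKM after 24 hours and 1.79 FPKM at 40 days. Y-linked Uty was at 3.25 and 3.74 FPKM in the normal libraries and at 0.00973, 0.0113 and 0.369 FPKM in the labelled ones. Y-linked Eif2s3y still measured 16.3, 22.6 and 4.58 FPKM in the labelled libraries, against 34.1 and 35.1 FPKM in the normal ones. Kdm5d did not exceed 0.00426 FPKM in any library. The labelled libraries thus differed from the normal ones in Y-linked genes, while not every Y-linked gene was near 0 in them. The part of this in the differences below was not tested. The stem cell factor Pou5f1 lay between 807 and 1092 FPKM in all 5 libraries. Each group being a single library, no difference can be checked against replicates, and fewer cells of a type cannot be told apart from less RNA per cell.

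With LIF, all 10 genes were lower in the Hk2/Pkm2-labelled library than in normal cells, and 9 of the 10 were also lower after 24 hours, Bax being the exception. Perp and Ptpn14 were at least 2-fold lower in both cultures. Trp53 itself differed by -0.31 and -0.27 on the log2 scale, and its targets differed by unequal amounts. At 40 days without LIF, Trp53 was at its lowest and Cdkn1a and Pmaip1 at their highest of the 5 libraries. These differences are on the scale of log2(FPKM + 1), where the added 1 makes differences of weakly expressed genes smaller. None of the cell type differences passed the test across all genes that the 4 early libraries allow, and the 40 day differences have no test.

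**Figure D1:**
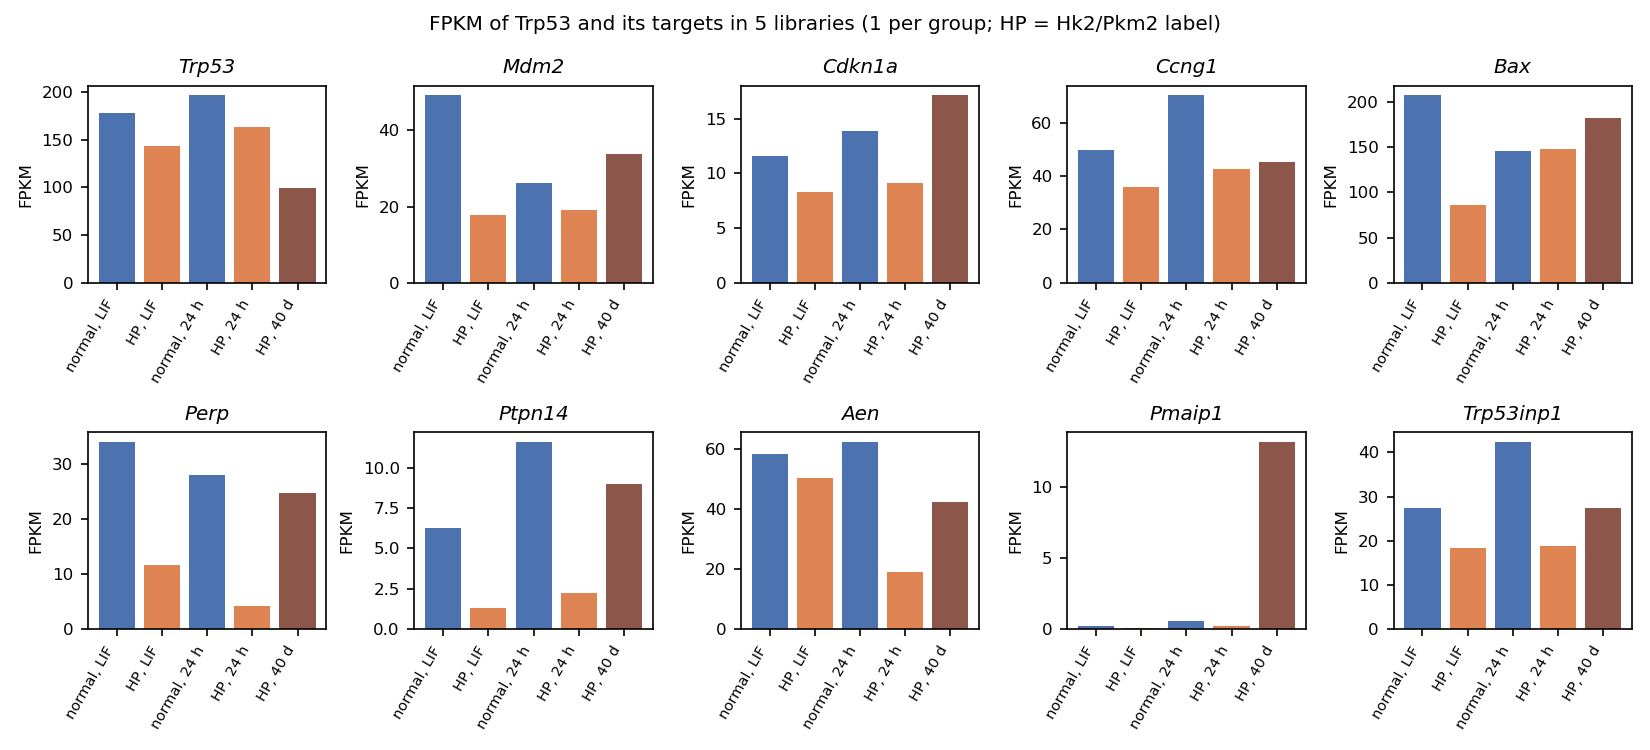
Bars give the FPKM (vertical axis, from 0, with its own scale for each gene) of the 10 genes in the 5 libraries, 1 library per bar, with normal cells in blue, Hk2/Pkm2-labelled cells (HP) in orange and the 40 day library in brown. Ptpn14 stood at 6.24 and 11.6 FPKM in the normal libraries and at 1.34 and 2.23 FPKM in the labelled libraries of the same cultures, and Pmaip1 reached 13.2 FPKM at 40 days only.

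Trp53 measured 178 FPKM (normal) and 143 FPKM (labelled) with LIF, 196 FPKM (normal) and 163 FPKM (labelled) after 24 hours, and 99.2 FPKM at 40 days. The 40 day library was the lowest, and both labelled libraries lay below the normal library of their culture, by 0.31 with LIF and 0.27 after 24 hours on the log2 scale. The gene lies on chromosome 11 from 69393861 to 69405375 (mm9, plus strand) and is protein-coding. Its 2 RefSeq transcripts kept similar proportions, with NM_011640 giving 70.3% to 75.9% of the sum. NM_001127233 was level with LIF, at 43.0 and 42.5 FPKM, while NM_011640 stood at 135 and 101 FPKM, so the lower sum of the labelled library lay in NM_011640. A pseudogene, Trp53-ps, is annotated on chromosome 17, and the treatment of fragments that match both is not known here, so the Trp53 level is uncertain to that extent. Trp63 and Trp73, the other members of the p53 family, did not exceed 0.86 FPKM in any library.

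Mdm2, the ubiquitin ligase that restrains p53, measured 49.2 FPKM (normal) and 17.8 FPKM (labelled) with LIF, 26.3 FPKM (normal) and 19.2 FPKM (labelled) after 24 hours, and 33.8 FPKM at 40 days. Normal cells with LIF were the highest library and the 2 labelled libraries of the early cultures the lowest. The FPKM ratio between cell types was 2.76 with LIF (log2 difference -1.42) and 1.37 after 24 hours (-0.44). The same normal library with LIF enters the 24 hour comparison of normal cells, where Mdm2 differed by -0.88, so these 2 values are not independent. In mm9 the gene spans bases 117125944 to 117147814 of chromosome 10, minus strand. Its relative Mdm4, which also binds p53, was listed at 0 in all 5 libraries, and an exact 0 in this table can be a failed estimate.

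Of the 2 cell cycle genes, Cdkn1a encodes p21, the inhibitor of cyclin-dependent kinases through which p53 arrests cells in G1, and Ccng1 encodes cyclin G1, an early p53 target. Cdkn1a measured 11.5 FPKM (normal) and 8.29 FPKM (labelled) with LIF, 13.9 FPKM (normal) and 9.10 FPKM (labelled) after 24 hours, and 17.1 FPKM at 40 days. The labelled libraries were the 2 lowest and the 40 day library the highest, although the log2 differences between cell types were small, -0.43 and -0.56. All of this signal came from NM_007669, since its second transcript, NM_001111099, was listed at 0 in every library. Ccng1 stood at 49.9, 36.1, 70.4, 42.7 and 45.3 FPKM in the same order of libraries. Normal cells after 24 hours were its highest library, and the labelled library lay lower by 0.46 with LIF and by 0.71 after 24 hours on the log2 scale. Cdkn1a lies on chromosome 17 from 29227924 to 29237667 (plus strand) and Ccng1 on chromosome 11 from 40562054 to 40568813 (minus strand), both in mm9.

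Among the genes of cell death, Bax encodes a pore-forming protein that opens the outer mitochondrial membrane. Bax measured 208 FPKM (normal) and 85.7 FPKM (labelled) with LIF, 146 FPKM (normal) and 148 FPKM (labelled) after 24 hours, and 183 FPKM at 40 days. The labelled library with LIF was the low one, and after 24 hours the cell types were level. The log2 difference between cell types was -1.27 with LIF and 0.02 after 24 hours, where quantile normalization turned the sign (-0.0019).

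Perp encodes a tetraspan membrane protein that takes part in p53-dependent death and is also a component of desmosomes in epithelia. It measured 34.0 FPKM (normal) and 11.7 FPKM (labelled) with LIF, 28.0 FPKM (normal) and 4.18 FPKM (labelled) after 24 hours, and 24.8 FPKM at 40 days. Both early labelled libraries lay below all other libraries, with FPKM ratios of 2.90 and 6.70 between normal and labelled cells (log2 differences -1.46 and -2.48). Because of its second role, markers of epithelium are given beside it. The 8 markers listed, among them Epcam and Cdh1, summed to 174 and 84.9 FPKM in normal and labelled cells with LIF, to 288 and 193 FPKM after 24 hours and to 409 FPKM at 40 days, with Pkp3 listed at 0 in labelled cells with LIF. With LIF, 5 of the 8 were at least 2-fold lower in the labelled library, against 5.32% of all genes. After 24 hours 1 was, against 5.18%. All 8 were lower there with LIF, against 55.1% of all genes, and 7 of 8 after 24 hours, against 52.8%. The exception was Dsp, the desmosomal protein desmoplakin, which was low throughout the early libraries, at 0.784 and 0.375 FPKM with LIF and 0.283 and 0.338 FPKM after 24 hours. The part of these markers in the Perp values was not tested.

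Aen encodes an exonuclease that acts in p53-dependent apoptosis. It measured 58.5 FPKM (normal) and 50.5 FPKM (labelled) with LIF, 62.4 FPKM (normal) and 19.1 FPKM (labelled) after 24 hours, and 42.5 FPKM at 40 days. Labelled cells after 24 hours were the 1 low library (log2 difference between cell types -1.66, against -0.21 with LIF). This lay in 1 of its 2 transcripts. NM_001162939 stood at 42.6, 41.0, 51.2, 6.52 and 30.2 FPKM in the order above, while NM_026531 stood at 15.9, 9.52, 11.3, 12.5 and 12.3 FPKM. The share of NM_001162939 was 34.2% in labelled cells after 24 hours and 71.1% to 82.0% elsewhere. Cufflinks divides shared fragments between transcripts by estimate, so the split is less certain than the sum.

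Trp53inp1 encodes a nuclear protein that promotes p53-dependent death and autophagy. It measured 27.3 FPKM (normal) and 18.4 FPKM (labelled) with LIF, 42.4 FPKM (normal) and 18.8 FPKM (labelled) after 24 hours, and 27.5 FPKM at 40 days. Normal cells after 24 hours were the highest library, and the 2 early labelled libraries were level with each other and lowest. The log2 difference between cell types was -0.55 with LIF and -1.13 after 24 hours, and NM_021897 and NM_001199105 were both lower in the labelled libraries.

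**Figure D2:**
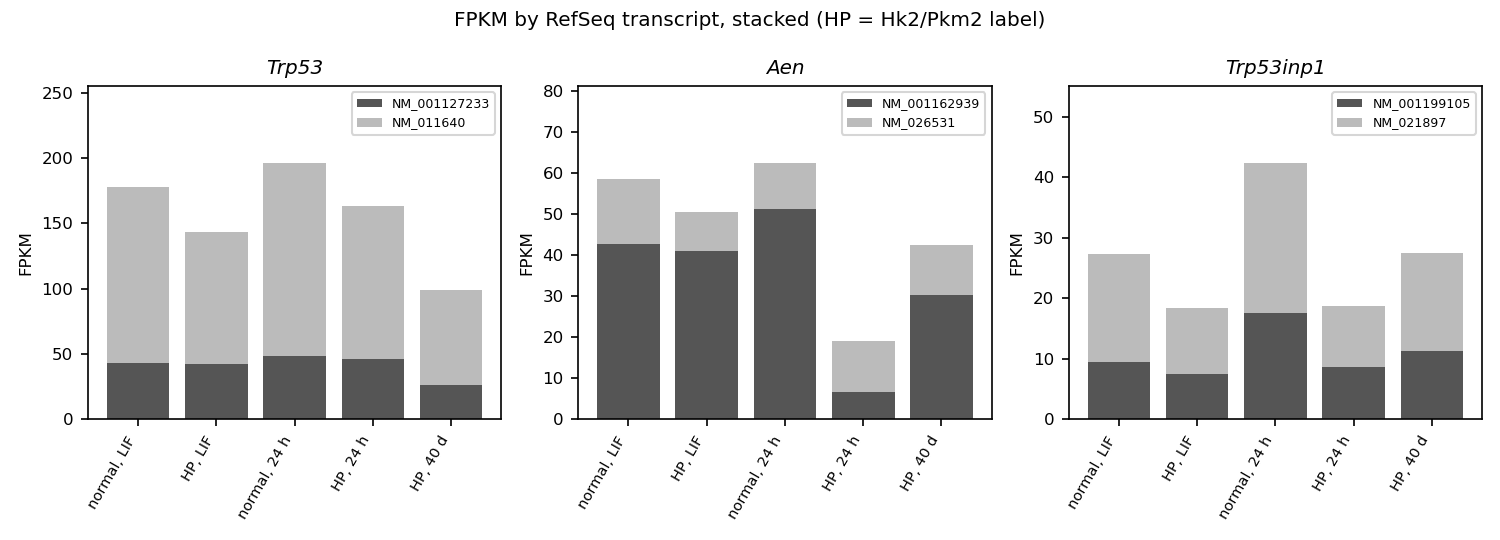
Stacked bars give FPKM (vertical axis, from 0) by RefSeq transcript for the 3 genes with 2 transcripts above 0, in the 5 libraries. In Aen the dark segment (NM_001162939) is 6.52 FPKM in labelled cells after 24 hours, where the light segment (NM_026531) is 12.5 FPKM, and in Trp53 and Trp53inp1 both segments are present in similar proportions throughout.

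Pmaip1, which encodes Noxa, a BH3-only protein that neutralizes Mcl1, measured 0.193 FPKM (normal) and 0.0791 FPKM (labelled) with LIF, 0.586 FPKM (normal) and 0.192 FPKM (labelled) after 24 hours, and 13.2 FPKM at 40 days. The first 4 values lie below 1 FPKM, where the log2 differences (-0.14 and -0.41 between cell types) depend on the pseudocount. Only the 40 day library brought the gene past the filter of a mean of 1 FPKM, which all 10 genes passed, so its difference at 40 days is partly given by the filter.

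Ptpn14 encodes a protein tyrosine phosphatase that restrains the YAP coactivator and is activated by p53. It measured 6.24 FPKM (normal) and 1.34 FPKM (labelled) with LIF, 11.6 FPKM (normal) and 2.23 FPKM (labelled) after 24 hours, and 8.97 FPKM at 40 days. The 2 early labelled libraries were the lowest, 4.67 and 5.20 times below the normal library of their culture (log2 differences -1.63 and -1.96). A long non-coding gene on the other strand, Gm17653, overlaps Ptpn14 exons in the mm9 annotation, and the kit used does not mark strand, so its fragments were not separated. The close paralog Ptpn21 measured 4.26 and 1.93 FPKM under LIF and 4.05 and 3.30 FPKM after 24 hours, also lower in the labelled libraries but by less (-0.84 and -0.23). Fibroblast and feeder cell markers are given beside it because fibroblasts can be present in stem cell culture. The 11 markers listed summed to 263 and 212 FPKM with LIF, to 221 and 113 FPKM after 24 hours and to 210 FPKM at 40 days. Of the 5 that passed the filter, Lgals1, Ccn1 and Ccn2 were at least 2-fold lower in the labelled library in both cultures, against 1.13% of all genes. Thy1 was higher in both, by 0.98 with LIF and 1.23 after 24 hours on the log2 scale, and Vim differed by 0.51 and -0.24. The defining collagens Col1a1 and Col3a1 did not exceed 0.195 FPKM in any library. Ccn1 and Ccn2 are not particular to fibroblasts and are also counted among YAP targets. The part of all these markers in the Ptpn14 values was not tested.

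The remaining genes are likewise protein-coding and have these mm9 positions. Bax spans bases 52717065 to 52722268 of chromosome 7 on the minus strand, and Aen bases 86040740 to 86056095 of the same chromosome on the plus strand. Perp spans bases 18564877 to 18576879 of chromosome 10, Ptpn14 bases 191552147 to 191700574 of chromosome 1, Trp53inp1 bases 11083578 to 11101526 of chromosome 4 and Pmaip1 bases 66618258 to 66625204 of chromosome 18, all on the plus strand.

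Counted over the members with LIF, Mdm2, Bax, Perp and Ptpn14 were at least 2-fold lower in the labelled library, 4 of 10, against 5.32% of the 9590 genes tested, and none was 2-fold higher, against 4.11%. All 10 were below 0, against 55.1% of all genes, with a median of -0.50 against -0.044. After 24 hours Perp, Ptpn14, Aen and Trp53inp1 were at least 2-fold lower, 4 of 10 against 5.18%, none was higher against 4.19%, and 9 were below 0 against 52.8%, with a median of -0.63 against -0.021. Perp and Ptpn14 were 2-fold lower in both cultures, 2 of 10 against 1.13% of all genes, and 9 of 10 were below 0 in both, against 35.4%. The genes were brought together with earlier results of these data known, so these counts describe the 10 genes and are no independent support. With a pseudocount of 0.1, Pmaip1 also passed after 24 hours (-1.23), making 5 genes lower there.

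**Figure D3:**
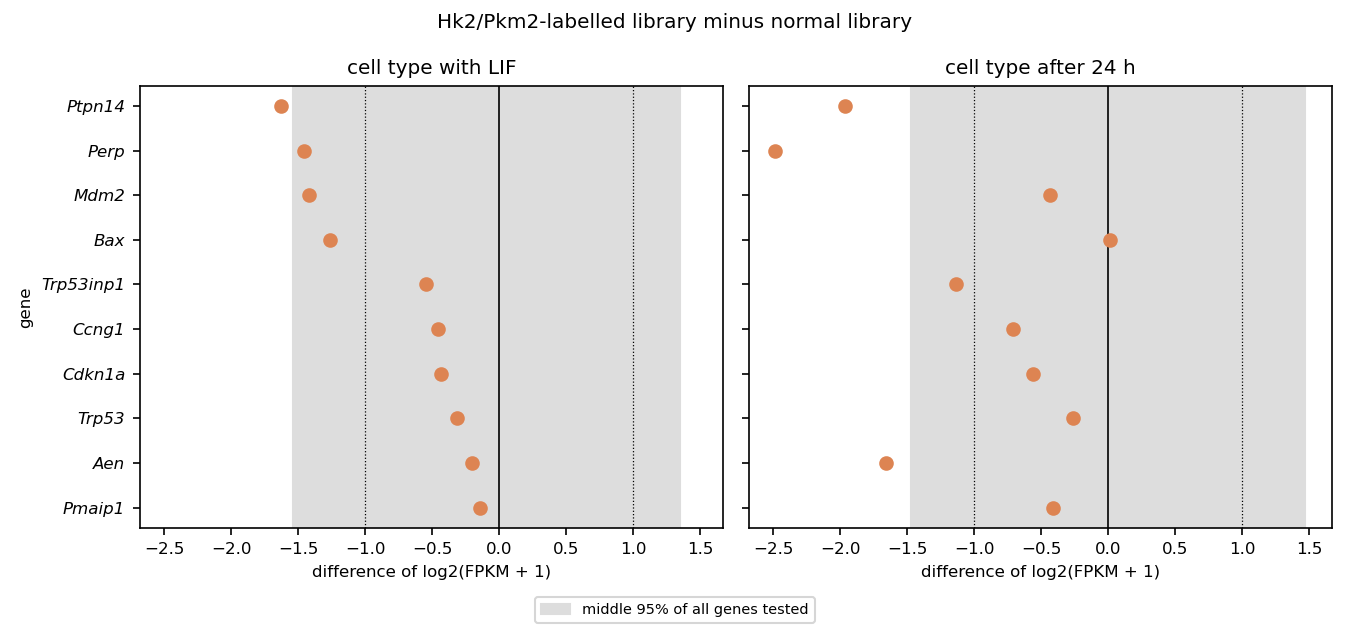
Points give the difference of log2(FPKM + 1) between the Hk2/Pkm2-labelled and the normal library (horizontal axis) for each gene (vertical axis) with LIF on the left and after 24 hours on the right; the grey band holds the middle 95% of all genes tested, and dotted lines mark 2-fold. Ptpn14 (-1.63) lies left of the band with LIF, and Perp (-2.48), Ptpn14 (-1.96) and Aen (-1.66) lie left of it after 24 hours.

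The only layout with any residual is that of the 4 early libraries, fitted in limma with cell type and culture as additive terms. It leaves 1 residual degree of freedom, which holds the interaction of the 2 factors together with noise, with no replicates. Its p-values for cell type thus weigh that difference against how unlike it was in the 2 cultures. Limma also draws the spread of each gene towards that of other genes, with 1.46 prior degrees of freedom. Ptpn14 was lower in labelled cells by -1.80 ± 0.19 (SE, limma, 4 libraries) on the log2 scale, with an unadjusted limma p of 0.00512 and an adjusted p of 0.512. Perp was lower by -1.97 ± 0.34 (SE), with an unadjusted limma p of 0.0175 and an adjusted p of 0.512. Trp53inp1 (-0.84 ± 0.20), Ccng1 (-0.58 ± 0.11), Cdkn1a (-0.50 ± 0.12) and Trp53 (-0.29 ± 0.071) had unadjusted limma p-values between 0.0201 and 0.0389. These 6 of 10 genes compare with 9.57% of all genes at an unadjusted p under 0.05, and the count was 4 with no filter, where Perp and Trp53inp1 dropped out, and 5 or 6 under the other alternatives. Mdm2 (-0.93 ± 0.32), Aen (-0.93 ± 0.47), Bax (-0.63 ± 0.42) and Pmaip1 (-0.28 ± 0.16) did not reach it. Over all 9590 genes limma called 0 at an adjusted p of 0.05, with 918 at an unadjusted p under 0.05, so no gene here passed the test.

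The 24 hour withdrawal left most of the 10 genes within 2-fold. In normal cells none of the 10 was 2-fold lower or higher, against 5.51% lower and 4.62% higher of all genes tested. Ptpn14 (0.80), Trp53inp1 (0.61) and Ccng1 (0.49) were the members farthest above 0 on the log2 scale, and Mdm2 (-0.88) and Bax (-0.50) the farthest below. In labelled cells Perp (-1.30) and Aen (-1.36) were at least 2-fold lower, 2 of 10 against 6.07% of all genes, and none was 2-fold higher, against 5.79%. Bax was higher there by 0.78 and Ptpn14 by 0.47, while Mdm2 (0.10), Cdkn1a (0.12), Trp53 (0.19) and Trp53inp1 (0.03) stayed close to 0. The sign for Trp53inp1 turned when the highest transcript replaced the sum (-0.095). In limma's culture effect over both cell types, 0 of the 10 genes had an unadjusted p under 0.05, against 12.0% of all genes, and up to 2 (Ptpn14 and Ccng1) under the alternatives. Ccng1 (0.36 ± 0.11) and Ptpn14 (0.63 ± 0.19, SE, limma, 4 libraries) came nearest, both with a limma adjusted p of 0.424.

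After 40 days without LIF, the labelled cells had less Trp53 RNA than with LIF, and the 9 targets described differed by unequal amounts. The median difference of the 10 genes was 0.93, against 0.076 of all genes and 0.10 of the wider list of targets below. That median includes Pmaip1, which passed the filter only through the 40 day library. Trp53 differed by -0.52 from labelled cells with LIF and by -0.71 from labelled cells after 24 hours. Pmaip1 (3.72), Ptpn14 (2.09), Bax (1.08) and Perp (1.02) were at least 2-fold higher than with LIF, 4 of 10 against 14.0% of all genes, and none was 2-fold lower, against 8.31%. Pmaip1 entered the count only through this library, and without it 3 of 9 were higher. Cdkn1a was 2.06 times higher in FPKM, at 17.1 against 8.29 FPKM, which is 0.96 on the log2(FPKM + 1) scale and short of 2-fold there, though 1.04 with a pseudocount of 0.1. Perp is close to the threshold as well, at 0.94 under median ratio scaling, which leaves 3 genes. Mdm2 was higher by 0.89 and Trp53inp1 by 0.55, while Aen was lower by 0.25.

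Against labelled cells after 24 hours, Pmaip1 (3.57), Perp (2.32), Ptpn14 (1.63) and Aen (1.12) were at least 2-fold higher, 4 of 10 against 12.1%, or 3 of 9 without Pmaip1, and none was lower, against 5.78%. Both 40 day comparisons share the 40 day library, so their counts are not independent. Each also takes as its baseline a labelled library of the cell type comparisons above. Bax, Perp and Ptpn14 were already 2-fold lower than normal in that library with LIF, and Perp, Ptpn14 and Aen after 24 hours. A low value in 1 such library enters both comparisons, so the lower and the higher calls of these genes are not separate results. The 40 day values of Perp (24.8 FPKM), Ptpn14 (8.97 FPKM), Trp53inp1 (27.5 FPKM) and Bax (183 FPKM) lay between or near the values of the 2 normal libraries, while that of Pmaip1 lay far above them and that of Trp53 far below.

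Other features of the 40 day library moved with these values. The 12 endoderm markers listed summed to 361 FPKM at 40 days and to 6.66 to 33.8 FPKM in the other 4 libraries, with Gata6 at 7.88 FPKM and Dab2 at 52.0 FPKM. Among the defining ones, Afp was listed at 0 in all 5 libraries and Sox17 at 0 at 40 days. The 10 naive pluripotency markers summed to 1072 FPKM at 40 days and to between 1488 and 2303 FPKM before. The part of these marker values in the p53 target values was not tested. Quantile normalization moved the median of all genes in the comparison with 24 hours from 0.072 to -0.053 on the log2 scale, and the calls of all genes from 1156 higher and 554 lower to 895 and 793. Against LIF the calls moved from 1343 higher and 797 lower to 1092 and 1018, and the same 4 members stayed past 2-fold in each comparison under quantile normalization.

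**Figure D4:**
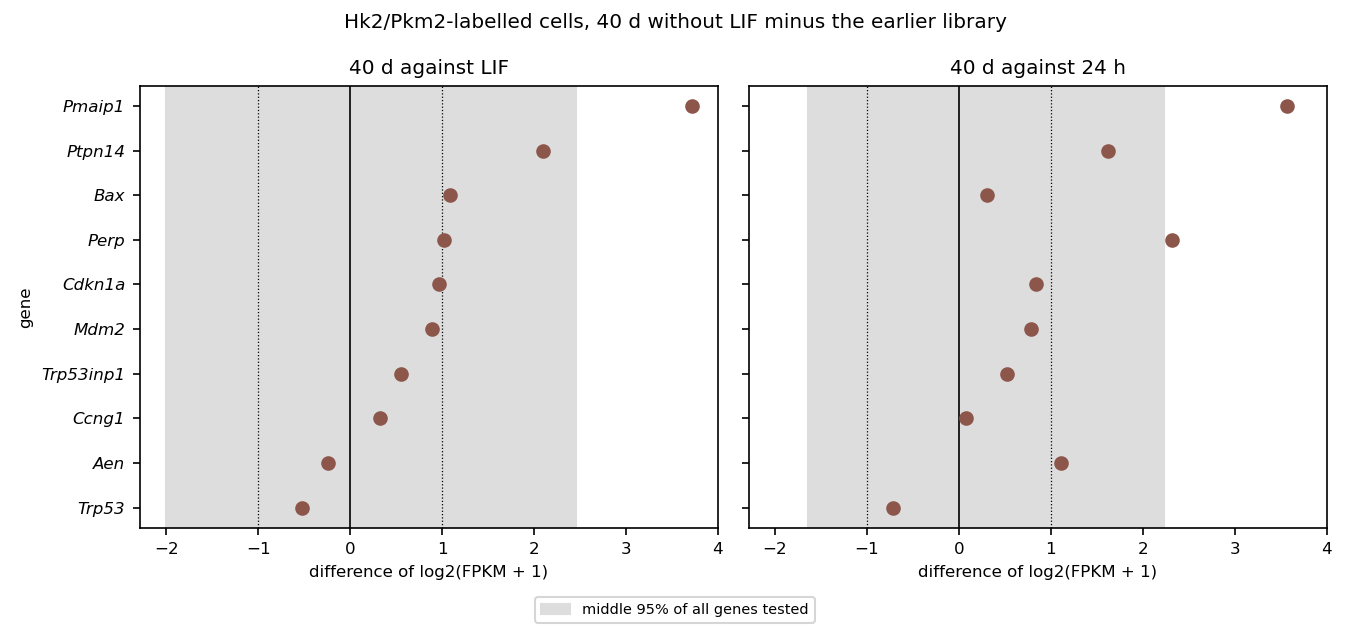
Points give the difference of log2(FPKM + 1) between the 40 day library and the Hk2/Pkm2-labelled library with LIF (left) or after 24 hours (right) on the horizontal axis for each gene on the vertical axis; the grey band holds the middle 95% of all genes tested, and dotted lines mark 2-fold. Pmaip1 (3.72 and 3.57) lies right of the band in both, Perp (2.32) does so against 24 hours, and Trp53 (-0.52 and -0.71) is the lowest gene in both.

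A wider list of 49 other p53 targets was drawn up from general knowledge, with earlier results of these data known, and 46 passed the filter. Counts over this list therefore describe it and are no independent support. With LIF, 31 of the 46 were below 0 in the labelled library, against 55.1% of all genes, 5 at least 2-fold lower, against 5.32%, and 1 higher, against 4.11%, with a median of -0.14. After 24 hours, 34 were below 0, against 52.8%, 5 at least 2-fold lower, against 5.18%, and 2 higher, against 4.19%, with a median of -0.30. All 12 cell cycle targets were below 0 with LIF and 11 of 12 after 24 hours, with medians of -0.37 and -0.40. The 11 apoptosis targets had medians of -0.04 and -0.42, with 8 and 9 below 0, the 8 DNA repair targets of -0.11 and 0.09, and the 11 metabolic targets of 0.03 and -0.23. Differences between these groups were not tested.

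By the rule for named genes, 3 of these 46 targets were 2-fold lower in both cultures, against 1.13% of all genes. Sfn, the 14-3-3 sigma protein that holds cells in G2, measured 47.7 and 20.1 FPKM in normal and labelled cells with LIF and 30.6 and 9.04 FPKM after 24 hours. Bbc3, the BH3-only protein Puma, stood at 17.8 and 8.24 FPKM and at 17.3 and 6.70 FPKM. Dcxr, a dicarbonyl and xylulose reductase, stood at 7.84 and 2.51 FPKM and at 8.52 and 2.75 FPKM. At 40 days Bbc3 (20.8 FPKM) and Dcxr (7.997 FPKM) were within or above the range of the normal libraries, while Sfn was lower at 16.8 FPKM. The 1 gene of the list at least 2-fold higher in both cultures, Pidd1, was listed at 0 in both normal libraries. Plk2, a kinase of the stress checkpoint, measured 13.2 and 6.06 FPKM with LIF and 13.7 and 7.43 FPKM after 24 hours, 2-fold lower with LIF alone.

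At 40 days the wider list held both higher and lower genes. Against labelled cells with LIF, 4 of the 46 were at least 2-fold higher (Cgrrf1, Bbc3, Dcxr and Gdf15), against 14.0% of all genes, and 3 were lower (Gtse1, Bid and Tigar), against 8.31%, with a median of 0.10. Both counts lie below the share among all genes. Gtse1, which restrains p53 in G2, measured 71.2 FPKM in labelled cells with LIF and 29.95 FPKM at 40 days, and Tigar, a regulator of glycolysis, measured 27.5 and 12.3 FPKM. Tigar was also lower after 24 hours in both cell types, at 14.1 and 12.8 FPKM.

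**Figure D5:**
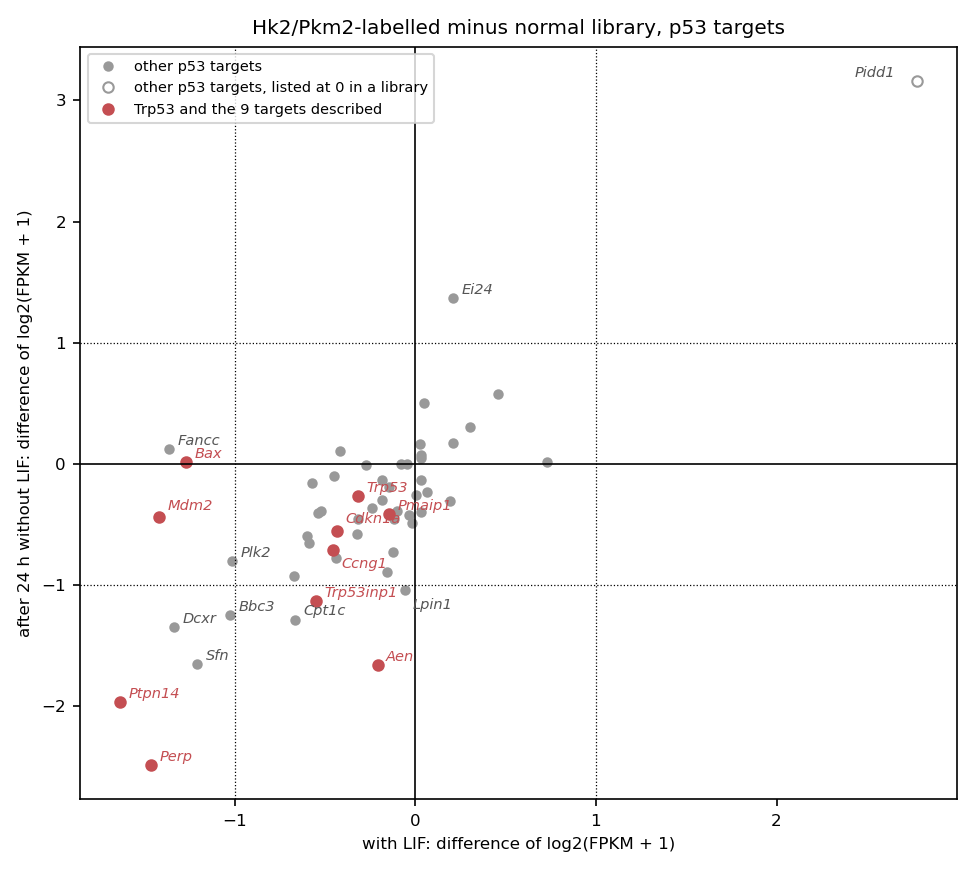
Each point is a p53 target, placed by the difference of log2(FPKM + 1) between the Hk2/Pkm2-labelled and the normal library with LIF (horizontal axis) and after 24 hours (vertical axis), 2 comparisons that share no library; red points are the 10 genes described, grey points the 46 other targets, and open circles those listed at 0 in a library. Perp, Ptpn14, Sfn, Bbc3 and Dcxr lie below -1 on both axes.

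Among 16 regulators of p53 past the filter, 2 were at least 2-fold lower and 1 higher with LIF, against 5.32% and 4.11% of all genes, and 1 lower and 1 higher after 24 hours, against 5.18% and 4.19%. The counts of higher genes, and of lower genes after 24 hours, are thus near those shares. Kmt5a, a lysine methyltransferase that acts on histone H4 and on p53, was 2-fold lower in labelled cells in both cultures, with 40.3 and 10.8 FPKM under LIF and 41.7 and 10.6 FPKM after 24 hours, and stood at 44.3 FPKM at 40 days. Smyd2, which also methylates p53, measured 13.2 and 5.29 FPKM with LIF, 13.0 and 6.59 FPKM after 24 hours and 14.3 FPKM at 40 days. Wrap53, the neighbour of Trp53, was at 13.5 and 11.5 FPKM with LIF and at 13.6 FPKM at 40 days. It was listed at 0 in both libraries after 24 hours, and such an exact 0 can be a failed estimate.

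The 5 genes whose profile over the 5 libraries lay closest to that of Mdm2, by the root mean square difference of centred log2(FPKM + 1) among 6247 genes above 0 in every library and at a mean of at least 5 FPKM, were Npc2 (0.13), AI413582 (0.17), Cst3 (0.17), Cant1 (0.197) and Pcsk1n (0.199). Npc2, a lysosomal cholesterol carrier, stood at 41.3, 16.5, 25.1, 18.2 and 25.2 FPKM in the order of libraries used above. None of the 5 is among the p53 genes listed, and with 5 libraries a close profile is a description only.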

How the data were processed

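The authors deposited FPKM per RefSeq transcript, made with TopHat2 2.0.7 and Cufflinks 2.0.2 on mm9, per the submitters' processing notes. The kit, per the labels' protocols, was TruSeq RNA, which does not mark strand. Symbols were found by accession in a RefSeq table (GRCm38.p6) for 28066 of 28698 transcripts, and FPKM was summed per gene. The 337 genes with a hyphen in a cell were left out. Genes with a mean of at least 1 FPKM (9590) were tested, 749 of them listed at 0 in a library. Differences are of log2(FPKM + 1), counted at 2-fold. Limma 3.58.1 (R 4.3.3, eBayes with trend, Benjamini-Hochberg over all genes) was fitted to 4 libraries. Tested on simulated data of this layout, the fit recovered the size of changes but called none of them at the measured spread, so a count of 0 calls says little. Coordinates are GENCODE vM1 on NCBIM37 (mm9). Replicate samples were not analysed here, so leaving out a replicate was not possible. Depth per library is known only through the worth of 1 fragment, estimated from the commonest low value of olfactory receptor transcripts. Alternatives were another pseudocount, 2 scalings, the highest transcript and 3 filters, and limma without trend. The named genes were the 10 members, list genes 2-fold different in both cultures, up to 4 extreme genes per list, a few relatives and cell type markers, and the 5 profiles nearest to Mdm2. Members and lists were chosen with earlier results of these data known.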

Additional observations from a re-analysis of the deposited data

Results flagged for a closer look

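Bax and Aen had differences of opposite sign under the same contrast, 1 of them at least 2-fold. For Bax the log2 difference between labelled and normal cells was -1.27 with LIF and 0.02 after 24 hours. For Aen the log2 difference of the 24 hour withdrawal was 0.09 in normal cells and -1.36 in labelled cells. Neither difference was tested, since no degree of freedom remains for it in the limma fit, and each value rests on 1 library a group.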

How the results depend on the processing

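No paired analysis was possible because each group has 1 library and no replicate number; the limma fit already holds culture as a term. With a pseudocount of 0.1, Pmaip1 passed 2-fold in normal cells after 24 hours (1.23), making 1 gene higher where there had been none, and in the cell type comparison after 24 hours, and Cdkn1a passed at 40 days against LIF (5 genes in both of the latter). Median ratio scaling left 3 genes at 40 days against LIF, without Perp, and a mean of at least 5 FPKM left 3 at 40 days against LIF and against 24 hours, since it removes Pmaip1. The other counts of the 10 genes were equal to those reported. No difference past 2-fold changed sign. With that pseudocount Pmaip1 differed by -1.23 between cell types after 24 hours, and by 6.21 and 5.51 at 40 days against LIF and 24 hours. With the highest transcript in place of the sum, Aen differed by -2.79 between cell types after 24 hours, by -2.48 for the withdrawal in labelled cells and by 2.05 at 40 days against 24 hours. The share of all genes past 2-fold was smaller with no filter, at 4.48% with LIF, 4.61% after 24 hours, 4.89% and 5.79% for the withdrawal in normal and labelled cells, and 11.6% and 9.41% at 40 days against LIF and 24 hours. Among genes above 0 in all libraries it was 6.12% with LIF and 6.22% after 24 hours; these 2 sets hold other numbers of genes. Limma called 0 genes in all 9 settings, and the adjusted p of Ptpn14 for cell type ranged from 0.365 to 0.537. At an unadjusted p under 0.05, the 10 genes numbered 4 to 6 for cell type and 0 to 2 for culture over these settings.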

Other observations

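Genes that act beside the p53 targets were listed as well. Of the 10 BCL2 family genes past the filter, other than Bax and the BH3-only targets, 1 was 2-fold lower with LIF (Bad, listed at 0 there), against 5.32% of all genes, and none after 24 hours, against 5.18%, with medians of -0.08 and -0.03. At 40 days against LIF, Bok, Bad, Bik and Hrk were at least 2-fold higher, 4 of 10 against 14.0% of all genes, with a median of 0.87. None was 2-fold lower there, against 8.31%. Hrk lay between 0.242 and 1.06 FPKM before 40 days, so its difference is partly given by the filter. Against labelled cells after 24 hours, 1 (Hrk) was 2-fold higher, against 12.1%. Mcl1, the survival factor bound by Noxa, stood at 133 and 116 FPKM with LIF, 146 and 143 FPKM after 24 hours and 161 FPKM at 40 days.

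The 20 cell cycle genes repressed through p21 had medians of -0.12 with LIF and 0.04 after 24 hours. Ccnb1 was the 1 gene 2-fold lower with LIF, near the 5.32% of all genes. It stood at 48.2 and 18.6 FPKM in normal and labelled cells with LIF and, the other way, at 24.0 and 42.2 FPKM after 24 hours. None of the 20 genes was 2-fold lower after 24 hours, against 5.18% of all genes. Mybl2, an activator of such genes, stood at 108.5 and 91.4 FPKM with LIF, at 70.1 and 74.3 FPKM after 24 hours and at 12.7 FPKM at 40 days. Cdkn1c, a relative of Cdkn1a from an imprinted locus, stood at 10.6 and 8.11 FPKM with LIF, at 39.0 and 30.7 FPKM after 24 hours and at 69.2 FPKM at 40 days, so it was 2-fold higher after 24 hours in both cell types, where Cdkn1a was not.

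Gdf15, a secreted stress factor among the p53 targets, lay between 0.944 and 1.84 FPKM in the first 4 libraries and stood at 16.3 FPKM at 40 days, the library in which Pmaip1 was also highest.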
